A study of Mus musculus with 12 samples.

Results

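The 8 genes described here, Hoxc13, Msx1, Msx2, Dlx3, Dlx4, Foxn1, Lef1 and Foxq1, encode transcription factors of the hair matrix and of the cells that leave it to form the hair. They were picked by symbol from the 18505 gene rows of one expression table, and all 8 were found. The table covers back skin of wild-type (WT) male BALB/c mice, 5 to 6 weeks old when the study began, with 4 samples in each of 3 groups, all taken on day 10. Every back was shaved first. The control group, labelled "white space handling", received petroleum jelly. The IMQ + NS group received imiquimod cream (IMQ), which activates Toll-like receptors and produces a psoriasis-like inflammation, and after 6 h a cover of saline under gauze and film. The IMQ + BZLF group received the same cream and the same kind of cover with Banzhilian formula (BZLF), a herbal preparation, in place of saline. The BZLF dose of the sequenced mice was not given in the sources used here, and a gauze and film cover was not described for the controls, so cream and cover cannot be told apart between the control and IMQ groups.

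The hair matrix is a cap of fast dividing keratinocytes that surrounds the dermal papilla at the base of a growing hair follicle. Its daughter cells move upward and turn into the hair shaft and the inner root sheath, and a resting follicle has no such matrix. WNT signals act there through Lef1, which binds DNA together with beta-catenin, and BMP signals act through the homeodomain factors Msx1 and Msx2. Dlx3 and its close relative Dlx4 are further homeodomain factors, and Dlx3 is needed for the shaft and the inner root sheath to form. Hoxc13 switches on hair keratin genes. The forkhead factor Foxn1 is the gene mutated in nude mice, and Foxq1, mutated in satin mice, shapes the medulla of the hair.

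In the GRCm38 annotation (GENCODE M21) all 8 are protein-coding genes. Hoxc13 lies on chromosome 15 (102921103 to 102928814, plus strand), Msx1 on chromosome 5 (37820485 to 37824583, minus), Lef1 on chromosome 3 (131110471 to 131224356, plus), and Msx2 and Foxq1 on chromosome 13 (53466884 to 53473074, minus, and 31556134 to 31560976, plus). Chromosome 11 carries Foxn1 (78357577 to 78386558, minus) and also Dlx3 (95120119 to 95125296, plus) and Dlx4 (95140447 to 95146263, minus), which face each other with 15150 bases between their ends. Dlx4, Lef1 and Foxq1 each overlap another annotated gene on the opposite strand, and none of those overlapping genes has a row in the table. Whether the counting used strand is not given in the sources used here, so reads from these 3 genes and from their opposite strand cannot be told apart.

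Since most of these genes were high in the same samples, the sequence before the start of each was examined for the letters that their own protein families recognise. RefSeq promoter sequence of GRCm38.p6 was at hand for 4 of them, Msx1, Msx2, Foxn1 and Lef1, and Hoxc13, Dlx3, Dlx4 and Foxq1 are named only. Each line gives the 250 bases before the RefSeq start, 5′ to 3′ on the strand of the gene. They span chr5:37824586-37824835 for Msx1, chr13:53472781-53473030 for Msx2, chr11:78386609-78386858 for Foxn1 and chr3:131110047-131110296 for Lef1, for which the most upstream of 4 starts was taken. The RefSeq start of Msx2 differs from the GENCODE start. Its window lies inside the GENCODE gene as given above and is not upstream of that gene. Capitals mark matches to 1 of 6 short motifs, searched on both strands.
Msx1: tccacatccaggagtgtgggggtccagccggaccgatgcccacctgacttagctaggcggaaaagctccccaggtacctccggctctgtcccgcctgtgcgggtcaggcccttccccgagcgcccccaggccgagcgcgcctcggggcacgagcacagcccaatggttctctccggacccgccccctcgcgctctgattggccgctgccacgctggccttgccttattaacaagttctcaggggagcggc
Msx2: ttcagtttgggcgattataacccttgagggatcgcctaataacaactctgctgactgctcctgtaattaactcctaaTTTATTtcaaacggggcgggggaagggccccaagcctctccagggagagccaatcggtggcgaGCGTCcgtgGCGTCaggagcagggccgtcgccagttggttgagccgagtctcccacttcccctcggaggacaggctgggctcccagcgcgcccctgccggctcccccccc
Foxn1: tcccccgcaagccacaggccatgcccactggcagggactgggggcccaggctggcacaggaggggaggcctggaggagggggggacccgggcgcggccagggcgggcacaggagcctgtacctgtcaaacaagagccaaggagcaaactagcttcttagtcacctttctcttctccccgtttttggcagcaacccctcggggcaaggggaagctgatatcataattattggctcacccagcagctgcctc
Lef1: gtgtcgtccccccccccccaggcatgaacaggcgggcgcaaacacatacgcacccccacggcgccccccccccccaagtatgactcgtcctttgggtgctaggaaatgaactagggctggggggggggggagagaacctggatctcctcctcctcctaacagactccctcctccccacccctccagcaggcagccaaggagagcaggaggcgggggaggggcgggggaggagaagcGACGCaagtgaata
The motifs were TATAAA (bound by the general factor TBP), CTTTGA (a core of LEF/TCF sites), TAATTG (a core of MSX and DLX sites), TTTATT (posterior HOX factors), GACGC (a core of FOXN1 sites) and TGTTTA (forkhead factors), and the marked matches do not share letters. The Msx2 window holds TTTATT, whose first letter lies 173 bases before the start, and GACGC as its reverse GCGTC at 110 and 101 bases before the start. The Lef1 window holds GACGC at 14 bases before the start, and the windows of Msx1 and Foxn1 hold none of the 6. Over all 32851 windows of this length, GACGC occurred in 22.6%, TTTATT in 18.1%, CTTTGA in 13.8%, TATAAA in 12.4%, TGTTTA in 12.03% and TAATTG in 7.17%. The 4 windows were rich in G and C, with 68% in Msx1, 66.4% in Lef1, 63.2% in Foxn1 and 61.6% in Msx2, against a median of 52.4% over all windows.

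Levels are given as FPKM, the number of fragments divided by transcript length and by sequencing depth, a unit that allows genes to be compared per length. The values of a sample summed to between 444660 and 506622, and 16649 to 16941 genes were above 0 in a sample. The read depth behind a value is unknown, so the error of each value is given by the 4 samples of its group. Keratinocyte genes were present in every sample, with a summed FPKM of the 9 epidermal markers of 2699 to 8073. Control replicate 2 stood apart from the other controls in the genes described here, and the fold changes against controls are therefore also given without it. Transcripts of seminal vesicle, summed over 6 genes, reached 39.1 FPKM in control replicate 2 and 38.8 in IMQ + BZLF replicate 2 and were at most 0.0441 in the other samples. Sums for 6 pancreas genes ran from 2.03 to 207 FPKM across all groups. The part of these foreign transcripts in the values was not tested.

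Psoriasis-like lesions were compared with control skin first. The hair matrix transcription factors were higher in the IMQ + NS group, in which 7 of the 8 were differentially expressed genes (DEGs), all higher, where 11.4% of the 15288 genes tested were higher DEGs. A DEG had a Benjamini-Hochberg adjusted p below 0.05 in limma and differed by over 1 in log2 fold change, up or down, on the scale log2(FPKM + 0.1). The exception was Msx1. Without control replicate 2 all 8 were DEGs, where 14.4% of genes were higher DEGs. The median log2 fold change of the 8 was 3.63, against 0.05 over all genes tested. In bulk skin, fewer cells of a type and less RNA per cell cannot be told apart, so these values do not separate the number of matrix cells from their content.

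**Figure D1:**
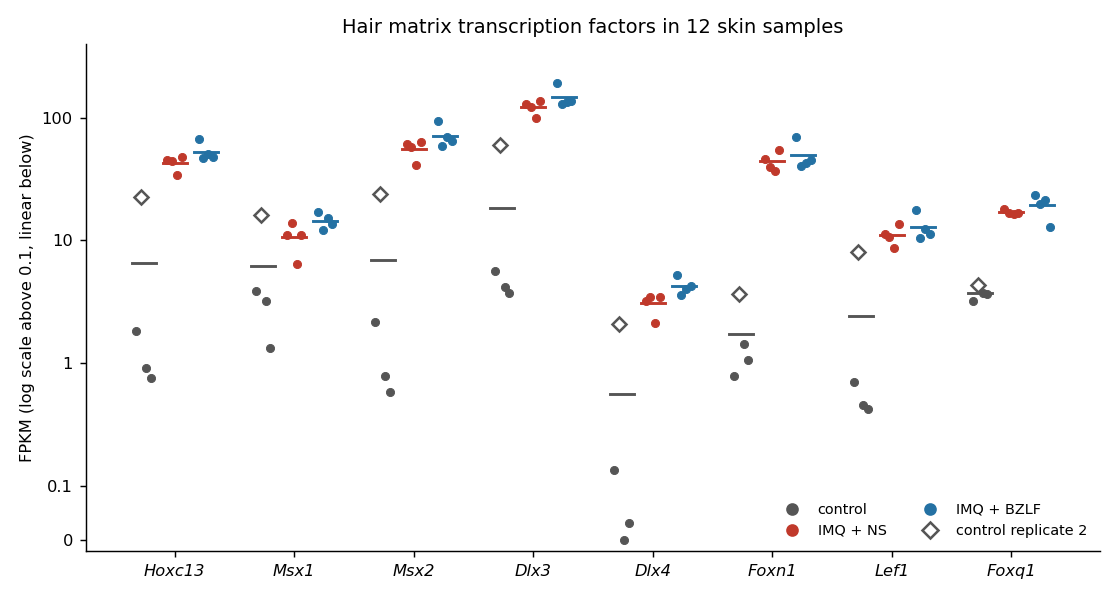
FPKM of the 8 transcription factors in each of the 12 samples (points, 4 per group; the axis is logarithmic above 0.1 and linear below), with the mean of each group as a bar and control replicate 2 as an open diamond. For 7 of the 8 genes every IMQ sample lies above every control, and control replicate 2 is the highest control for all 8.

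Among the factors that carry signals into the matrix, Lef1 was at 0.695, 8.08, 0.455 and 0.424 FPKM in control replicates 1 to 4 and at 11.2, 10.7, 8.68 and 13.6 FPKM in the IMQ + NS group. Control replicate 2 came close to the lowest IMQ + NS sample, and the groups did not overlap. The log2 fold change of Lef1 was 3.23 (standard error, SE, 0.80, adjusted p = 0.00829) and 4.17 without control replicate 2. Lef1 is also made by T cells, whose part in its values was not tested. The summed FPKM of 5 T cell genes was 12.8 to 18.2 in controls, 9.27 to 18.5 in the IMQ + NS group and 5.84 to 11.6 in the IMQ + BZLF group, and none of the 5 was a higher DEG in limma in either comparison with controls (1 and 3 had an unadjusted p below 0.05, and Cd3e and Cd3g were lower DEGs after BZLF).

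The MSX genes, which act downstream of BMP signals, differed in size of change. Msx2 was at 2.15, 24.0, 0.780 and 0.584 FPKM in the controls and at 60.9, 57.4, 41.3 and 63.2 FPKM in the IMQ + NS group, with every IMQ + NS sample above every control. Its log2 fold change was 4.53 (SE 0.98, adjusted p = 0.00446) and 5.64 without control replicate 2. Msx1 was at 3.86, 16.1, 3.204 and 1.33 FPKM in the controls and at 11.1, 13.8, 6.39 and 11.0 FPKM in the IMQ + NS group. Here control replicate 2 was above every IMQ + NS sample, while the other controls were below all of them. The log2 fold change of Msx1 was 1.30 with a 95% confidence interval from -0.15 to 2.75 (adjusted p = 0.112), and without control replicate 2 it was 1.95 (adjusted p = 0.00211).

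Dlx3, which is needed for the differentiation of shaft and sheath, was the most abundant of the 8. It was at 5.61, 60.5, 4.18 and 3.72 FPKM in the controls and at 131, 122, 100.4 and 138 FPKM in the IMQ + NS group. The groups did not overlap, and the log2 fold change was 3.81 (SE 0.79, adjusted p = 0.00353), or 4.75 without control replicate 2. Its neighbour Dlx4 was the least abundant of the 8, at 0.134, 2.07, 0 and 0.0318 FPKM in the controls and at 3.22, 3.43, 2.13 and 3.45 FPKM in the IMQ + NS group. Control replicate 2 lay just below the lowest IMQ + NS sample, and Dlx4 was listed at 0 in control replicate 3. The log2 fold change of Dlx4 was 3.44 (SE 0.86, adjusted p = 0.00868) and 4.41 without control replicate 2, and with control values this low it moved between 1.54 and 4.83 when 1 or 0.01 was added before the logarithm.

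Hoxc13, the activator of hair keratin genes, was at 1.83, 22.8, 0.904 and 0.752 FPKM in the controls and at 45.0, 44.5, 34.4 and 47.8 FPKM in the IMQ + NS group. All IMQ + NS samples were above all controls. The log2 fold change was 4.11 (SE 0.92, adjusted p = 0.00522) and 5.17 without control replicate 2.

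The forkhead factors had the least relative spread between the controls, with a coefficient of variation of 75.2% for Foxn1 and 12.3% for Foxq1 against at least 110% for the other 6 genes. Foxn1, the nude gene, was at 0.787, 3.64, 1.43 and 1.06 FPKM in the controls and at 46.5, 39.7, 37.1 and 54.1 FPKM in the IMQ + NS group, so that control replicate 2 was the highest control but stayed far below the lesions. Its log2 fold change of 4.82 (SE 0.39, adjusted p = 2.79e-05) was the largest of the 8 with all samples, and without control replicate 2 it was 5.24, below the 5.64 of Msx2. Foxq1, the satin gene, was at 3.21, 4.33, 3.73 and 3.66 FPKM in the controls and at 18.0, 16.6, 16.5 and 16.8 FPKM in the IMQ + NS group. Both groups were tight for Foxq1, at 3.73 ± 0.460 (SD, n = 4) and 17.0 ± 0.679 FPKM, and the log2 fold change of 2.16 (SE 0.10, adjusted p = 1.14e-06) was nearly the same without control replicate 2 (2.24).

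Every IMQ + NS sample lay above every control for 7 of the 8 genes, where 23.7% of all genes tested did so. The exact two-sided permutation test of 4 against 4 samples gave its smallest possible p of 0.0286 for these 7 and 0.143 for Msx1. In the IMQ + NS group the order of the mean levels was Dlx3 at 123 ± 16.2 (SD, n = 4), Msx2 at 55.7 ± 9.92, Foxn1 at 44.4 ± 7.63, Hoxc13 at 42.9 ± 5.88, Foxq1 at 17.0 ± 0.679, Lef1 at 11.0 ± 2.01, Msx1 at 10.6 ± 3.07 and Dlx4 at 3.06 ± 0.627 FPKM. The ranges overlapped between Msx2 and Foxn1, between Foxn1 and Hoxc13 and between Lef1 and Msx1, and did not overlap between the other neighbours in this order. IMQ + NS replicate 3 was the lowest of its group for all 8 genes. In the controls, where Dlx3 was again highest with 18.5 ± 28.0 FPKM and Dlx4 lowest with 0.559 ± 1.01 FPKM, the ranges of all neighbours in the order overlapped.

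The effect of BZLF was compared within the lesions. None of the 8 genes was a DEG between the IMQ + BZLF and the IMQ + NS groups in limma, where 0.321% of the genes tested were higher and 2.2% were lower DEGs. All 8 had a log2 fold change above 0, from 0.14 for Foxn1 to 0.49 for Msx1, with a median of 0.29 against -0.02 over all genes tested. At an unadjusted p below 0.05 there were 2, Msx1 and Dlx4, and the counts under the other settings of the test were also 0 DEGs. The 95% confidence intervals stayed below a log2 fold change of 1 for all 8 genes.

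Dlx4 was at 5.17, 3.59, 4.0 and 4.26 FPKM in the IMQ + BZLF group, and each of these was above the highest IMQ + NS sample of 3.45 FPKM. Its log2 fold change was 0.48 (95% confidence interval 0.09 to 0.86, adjusted p = 0.137). It was the only one of the 8 with no overlap between these groups, where 4.24% of all genes tested had every IMQ + BZLF sample higher, and the exact two-sided permutation p of 0.0286 is the smallest that 4 against 4 samples allow. Msx1 was at 17.0, 12.2, 15.2 and 13.6 FPKM after BZLF, overlapping with the IMQ + NS group, and its log2 fold change was 0.49 (95% confidence interval 0.02 to 0.97, adjusted p = 0.207).

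The more abundant homeodomain factors were also close between the lesion groups. Dlx3 was at 194, 130.5, 135 and 137 FPKM in the IMQ + BZLF group, and Msx2 at 94.0, 58.4, 69.9 and 64.2 FPKM. Hoxc13 was at 66.7, 46.9, 50.7 and 47.9 FPKM. In all 3 genes replicate 1 was set off at the top and the other samples lay within or just above the range of the IMQ + NS group, with log2 fold changes of 0.27 (-0.05 to 0.59, 95% confidence interval) for Dlx3, 0.36 (-0.03 to 0.74) for Msx2 and 0.30 (-0.0009 to 0.60) for Hoxc13.

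Foxn1 was at 69.8, 40.2, 42.9 and 45.4 FPKM, Lef1 at 17.6, 10.4, 12.3 and 11.2 FPKM and Foxq1 at 23.6, 19.7, 21.3 and 12.8 FPKM in the IMQ + BZLF group. All 3 overlapped with the IMQ + NS group, with log2 fold changes of 0.14 (-0.27 to 0.55, 95% confidence interval), 0.21 (-0.20 to 0.61) and 0.15 (-0.22 to 0.52). IMQ + BZLF replicate 1 was the highest of the 12 samples for all 8 genes. The same sample was highest of its group for the summed hair shaft genes (14974 FPKM, against 9800 to 10606 in the others) and the summed melanocyte genes (587 against 281 to 289 FPKM). Without it the log2 fold changes ran from -0.04 for Foxn1, which then changed sign, to 0.41 for Msx1. They were 0.05 for Lef1 and 0.05 for Foxq1, so little difference was left for Foxn1, Lef1 and Foxq1. In the other lesion group, IMQ + NS replicate 3 was the lowest for all 8 genes. With that sample left out instead, the log2 fold change was 0.27 for Msx1 and 0.32 for Dlx4, their lowest with any 1 sample removed. For the other genes the lowest came without IMQ + BZLF replicate 1.

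Against the control group, all 8 genes were higher DEGs in the IMQ + BZLF group, where 9.65% of the genes tested were. This comparison shares its control samples with the first. The log2 fold changes were 4.41 for Hoxc13, 4.88 for Msx2, 4.96 for Foxn1, 4.08 for Dlx3, 3.92 for Dlx4, 3.44 for Lef1, 2.32 for Foxq1 and 1.79 for Msx1. The call of Msx1 (adjusted p = 0.0353) was lost in 7 of 8 fits, each with 1 sample removed, and its log2 fold change was 2.45 without control replicate 2. For the others the values without that sample were 5.48 for Hoxc13, 5.99 for Msx2, 5.38 for Foxn1, 5.02 for Dlx3, 4.89 for Dlx4, 4.37 for Lef1 and 2.39 for Foxq1. Every IMQ + BZLF sample was above every control for 7 of the 8 genes, where 19.4% of all genes were, and Msx1 overlapped through control replicate 2. Without that sample 12.7% of genes and all 8 of these were higher DEGs.

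**Figure D2:**
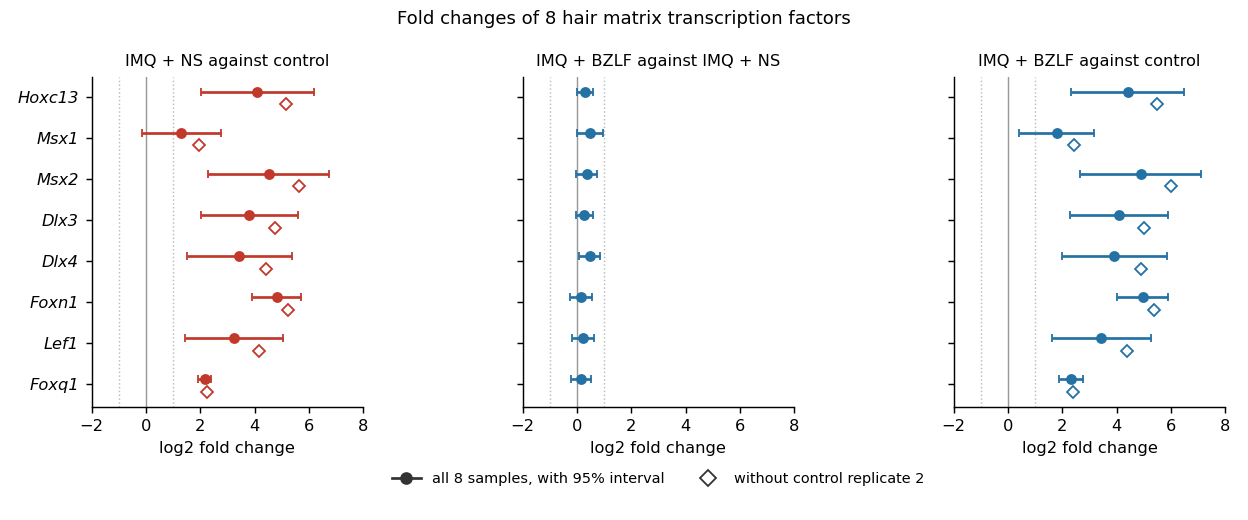
Log2 fold changes of the 8 transcription factors in the 3 comparisons (filled points, with 95% confidence intervals from limma, 4 against 4 samples), and without control replicate 2 (open diamonds); dotted lines mark a log2 fold change of 1 in either direction. Against controls only the interval of Msx1 in the IMQ + NS group reaches 0, and between the lesion groups all intervals lie below 1.

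Control replicate 2 is a single sample, so its levels are described here without a comparison between groups. It was above the other 3 controls for all 8 genes. Against the highest of the other controls it was 15.4-fold higher for Dlx4, 12.4-fold for Hoxc13, 11.6-fold for Lef1, 11.1-fold for Msx2, 10.8-fold for Dlx3, 4.17-fold for Msx1, 2.54-fold for Foxn1 and 1.16-fold for Foxq1. Hoxc13, Msx2, Dlx3 and Lef1 thus stood above the next control by similar factors, and the factor of Dlx4 rests on a value of 0.134 FPKM in that control.

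The distance to the lesions also differed between the genes. As a percent of the IMQ + NS mean, control replicate 2 reached 153% for Msx1, 73.1% for Lef1, 67.7% for Dlx4, 53.0% for Hoxc13, 49.4% for Dlx3, 43.1% for Msx2, 25.5% for Foxq1 and 8.21% for Foxn1. The other controls were between 1.77% and 3.23% for Foxn1, between 1.75% and 4.27% for Hoxc13, between 12.6% and 36.6% for Msx1 and between 18.9% and 21.9% for Foxq1. Control replicate 2 was therefore below all 8 IMQ samples for 7 genes and above 7 of the 8 IMQ samples for Msx1. Control replicate 1 was above replicates 3 and 4 for 6 of the 8 genes, from 1.21-fold over the higher of them for Msx1 to 4.21-fold for Dlx4. For Foxn1 and Foxq1 it was the lowest control. The share of all genes with control replicate 1 above replicates 3 and 4 was not computed.

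**Figure D3:**
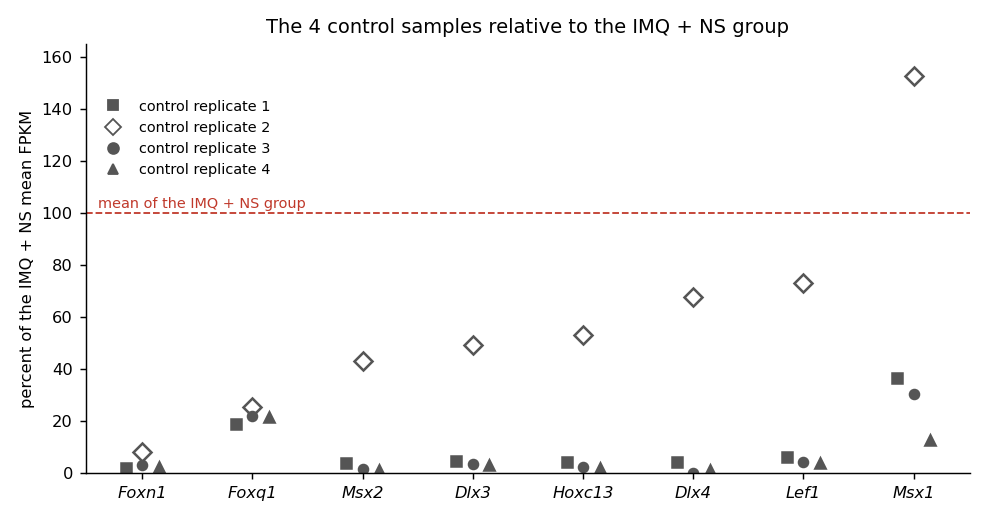
Level of each transcription factor in the 4 control samples (symbols) as a percent of the mean FPKM of the IMQ + NS group, which is the dashed line at 100. Control replicate 2 (open diamond) runs from 8.21% for Foxn1 to 153% for Msx1, while the other 3 controls stay at or below 36.6%.

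The products of the matrix differed in the same sample. The summed FPKM of 19 hair shaft genes was 61.0 to 79.2 in the other controls, 416 in control replicate 2 and 7393 to 10658 in the IMQ + NS group, so that control replicate 2 reached 4.61% of the IMQ + NS mean. Selenbp1 alone made up 39.5 to 44.7 FPKM of the sums of the other controls and 25.6 FPKM in control replicate 2, where Krt35 and Krt85 held most of the sum. For 8 inner root sheath genes it reached 21.0%, against 0.207% to 0.618% in the other controls. For 8 proliferation genes it reached 125% and was the highest of all 12 samples for 7 of them, against 12.8% to 21.1% in the other controls. The dermal papilla genes were at 159% and the melanocyte genes at 91.6% of the IMQ + NS mean, against 68.9% to 81.9% and 15.1% to 22.3% in the other controls. In control replicate 2, 6 of 7 melanocyte genes were above every other control, all but Mlana (40.0 FPKM). Mlana made up 17.2 to 49.8 FPKM of the sums of the other controls. The other melanocyte genes each reached at most 13.1% of their IMQ + NS mean there. Of 12 dermal papilla genes 9 were above every other control, with Sox18 the largest part at 60.5 FPKM. Fgf7 (5.65 against 7.45 to 9.36 FPKM) and Prom1 were below every other control.

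Single hair keratins in control replicate 2 also differed in their distance to the lesions. Krt35 reached 42.4% and Krt81 0.521% of the IMQ + NS mean, a wider relative spread than that of the 8 factors. Krt35 was at 149 FPKM there, below the lowest IMQ sample of 268 FPKM, and Krt85 at 94.0 FPKM, below 369 FPKM. Krt81 was at 6.03 FPKM, where every IMQ sample had at least 882 FPKM, and Krt33a at 13.7 FPKM, where every IMQ sample had at least 1012 FPKM. Of the signals and factors around the matrix, Shh, a mitogen made by matrix cells, was at 13.1 FPKM in control replicate 2, above the 3.65 to 6.39 FPKM of the IMQ samples, and its target Gli1 was at 30.8 FPKM, above their 8.86 to 14.7 FPKM. The factor Lhx2 was at 25.3 FPKM, above their 10.6 to 14.6 FPKM. These 7 genes were chosen after their values were seen, and their part in the levels of the 8 factors was not tested.

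**Figure D4:**
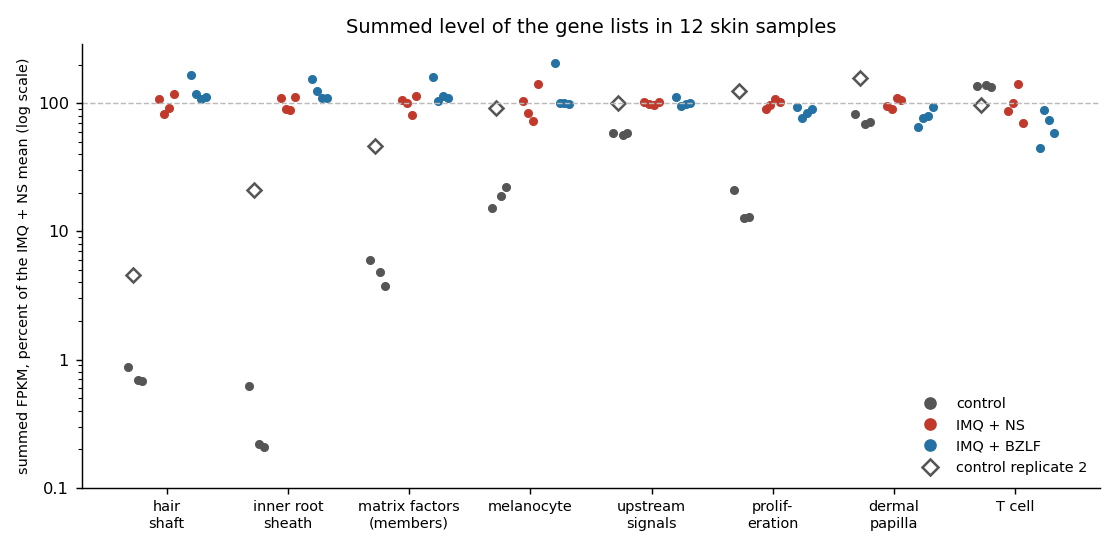
Summed FPKM of marker gene lists in each sample as a percent of the IMQ + NS mean (logarithmic axis; points are samples, control replicate 2 is an open diamond). In control replicate 2 the hair shaft genes stand at 4.61%, the inner root sheath genes at 21.0%, the 8 matrix factors at 46.1% and the proliferation genes at 125%.

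Ratios within a sample show how far the 8 genes kept step. Of the 28 ratios between pairs of them, taken as differences of log2(FPKM + 0.1), 15 did not overlap between the IMQ + NS and control groups, 16 between the IMQ + BZLF and control groups and 0 between the IMQ + BZLF and IMQ + NS groups. The lowest adjusted p of an exact permutation test of 4 against 4 samples over the 28 ratios was 0.0533, 0.05 and 0.4 in the same order, none below 0.05. The unadjusted p of this test cannot fall below 0.0286. In both comparisons with controls the lowest adjusted p is therefore set by the number of ratios without overlap, and it cannot decide whether a ratio differed. Since the added 0.1 weighs on Dlx4, which was at or near 0 in control replicates 1, 3 and 4, the ratios of FPKM with nothing added were also compared, a check chosen after seeing the data, over the 21 pairs without Dlx4. Of these, 12, 12 and 0 did not overlap in the same order, with lowest adjusted p in the exact permutation test of 0.05, 0.05 and 0.52, under the same limit. How often ratios between other genes of the table do not overlap was not computed. The counts can therefore not be called particular to the 8 genes. The Msx1 to Msx2 ratio was 1.79, 0.672, 4.11 and 2.28 in the controls, 0.155 to 0.2398 in the IMQ + NS group and 0.181 to 0.217 in the IMQ + BZLF group. In the controls Msx1 was thus the more abundant MSX gene in 3 of 4 samples, and in the lesions Msx2 was in all 8.

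The ratios of Hoxc13 to Dlx3 and to Msx2 moved less. Hoxc13 to Dlx3 was 0.342 to 0.366 in the IMQ + NS group and 0.344 to 0.376 in the IMQ + BZLF group, and 0.326, 0.376, 0.216 and 0.202 in the controls, so that control replicates 1 and 2 were near the lesions. Hoxc13 to Msx2 was 0.739 to 0.833 and 0.709 to 0.803 in the lesion groups and 0.850 to 1.29 in the controls, which did not overlap with the lesions. The Foxn1 to Lef1 ratio did not keep step in control replicate 2. It was 0.451 there, 1.13, 3.15 and 2.51 in control replicates 1, 3 and 4, and 3.48 to 4.28 in the lesions.

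**Figure D5:**
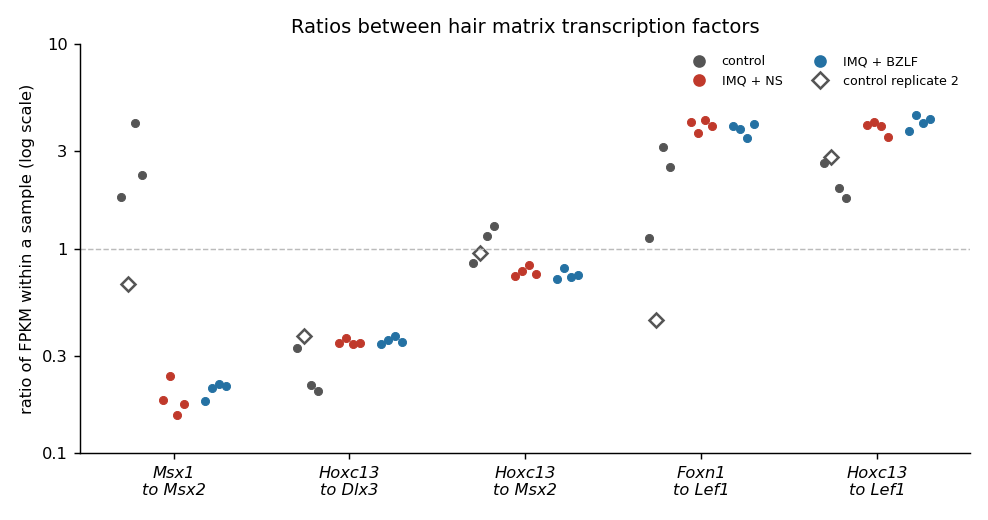
Ratio of the FPKM of 5 pairs of factors within each sample (points; logarithmic axis; control replicate 2 as an open diamond). The Msx1 to Msx2 ratio is at least 0.672 in controls and at most 0.2398 in IMQ samples, while the Hoxc13 to Dlx3 ratio stays between 0.202 and 0.376 throughout.

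The genes closest in pattern were found by the root mean square difference of centred log2(FPKM + 0.1) values over the 12 samples, among 12656 genes that averaged 1 FPKM or more. This is a description, and samples of a group and control replicate 2 carry much of any likeness. Closest to Hoxc13 were Golga7b (0.12), Fbp1 (0.16) and Dlx3 (0.24), to Msx2 were Tubb3 (0.24), Hoxc13 (0.25) and Oca2 (0.31), and to Dlx3 were Samd5 (0.17), Fbp1 (0.23) and Hoxc13 (0.24). Closest to Dlx4 were Dlx3 (0.25), Lef1 (0.27) and Adamts18 (0.31), and to Lef1 were Mc1r (0.21), Hes2 (0.27) and Dlx4 (0.27). Hoxc13, Msx2, Dlx3, Dlx4 and Lef1 therefore had others of the 8 among their closest genes, out of all those compared.

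The remaining 3 had none of the 8 among their closest genes. Closest to Foxn1 were Adh6b (0.30), Atp13a4 (0.33) and Rnf182 (0.33), to Foxq1 were Pnpla1 (0.17), Prdm1 (0.17) and Map3k6 (0.18), and to Msx1 were Begain (0.33), Bmper (0.34) and Mcoln3 (0.35). Adh6b was at 2.54 FPKM in control replicate 2 and at 47.0 ± 7.32 (SD, n = 4) in the IMQ + NS group, much as Foxn1 itself. Begain was at 2.003 and 1.98 ± 0.537 FPKM, near its IMQ + NS mean in control replicate 2. Msx1 itself was above its mean there, at 16.1 against 10.6 ± 3.07 FPKM. Among the 8, Hoxc13 and Dlx3 were the closest pair (0.24) and Msx1 and Foxn1 the most distant (1.66).

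Of 22 other transcription factors of the hair follicle, 13 were higher and 1 was a lower DEG in the IMQ + NS group against controls (16 and 1 without control replicate 2). Over all genes tested 11.4% were higher and 11% were lower DEGs there (14.4% and 12.2% without that sample). The 3 most abundant higher DEGs were Hr, the hairless corepressor, at 24.8 ± 6.99 (SD, n = 4) and 77.1 ± 6.58 FPKM (log2 fold change 1.67, adjusted p = 0.000109), Grhl1, at 23.0 ± 6.38 and 66.5 ± 5.67 FPKM (1.57, adjusted p = 0.000236), and Vdr, the vitamin D receptor, at 17.9 ± 18.3 and 70.2 ± 4.11 FPKM (2.40, adjusted p = 0.00352). The lower DEG was Foxi3, a forkhead factor of early hair follicles, at 1.39, 4.002, 0.933 and 0.449 FPKM in the controls and 0.0620 to 0.268 FPKM in the IMQ + NS group (log2 fold change -2.31, adjusted p = 0.00803). In the IMQ + BZLF group against controls, 12 of the 22 were higher and 2, Foxi3 and Nfatc1, were lower DEGs (16 and 1 without control replicate 2). Of all genes 9.65% were higher and 10.1% were lower DEGs in that comparison (12.7% and 11.8% without control replicate 2). Between the lesion groups limma gave 0 DEGs among the 22, with 5 at an unadjusted p below 0.05. Of these Hr was lower at an adjusted p of 0.0267 but inside the limit of fold change (-0.33).

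The relatives of the 8 genes did not move as one family. Of 20 relatives and neighbours in the HoxC cluster found in the table, 13 were expressed highly enough to be tested. In the IMQ + NS group 3 were higher and 4 were lower DEGs, with the same counts without control replicate 2. The shares over all genes tested were 11.4% higher and 11% lower (14.4% and 12.2% without that sample). Dlx1 was at 0.337 ± 0.546 (SD, n = 4) and 1.21 ± 0.373 FPKM (log2 fold change 2.29), and Dlx2 at 1.67 ± 2.92 and 5.05 ± 0.925 FPKM (3.26). For Dlx5 the log2 fold change was 0.72 (adjusted p = 0.0664). Foxc1, a forkhead gene on the chromosome of Foxq1, was at 6.51 ± 1.37 and 14.4 ± 1.85 FPKM (1.14). It fell just under the limit, at 0.98, under another scaling of the samples.

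Hoxc13 moved against its cluster. In the IMQ + NS group Hoxc6, Hoxc8, Hoxc9 and Hoxc10 were lower DEGs, with log2 fold changes of -1.08, -1.07, -1.60 and -1.65 (adjusted p = 0.000588, 0.00052, 0.000555 and 0.000631), and they remained lower DEGs under the 3 other scalings tried. Hoxc4 (-0.88) and Hoxc5 (-0.65) were lower with adjusted p = 0.0024 and 0.00541 but inside the limit of fold change, and Hoxc11 (-0.42, adjusted p = 0.587) did not pass. These 3 genes and Dlx5 were added after their values were seen, to complete their families. Control replicate 2 was at 5.78, 14.9, 4.76 and 8.44 FPKM for Hoxc6, Hoxc8, Hoxc9 and Hoxc10, above every IMQ sample. For Hoxc8 and Hoxc10 this was within the range of the other controls, and for Hoxc6 and Hoxc9 it was below them. In the IMQ + BZLF group against controls Hoxc9 and Hoxc10 were lower DEGs, joined by Hoxc6 without control replicate 2, and Dlx1, Dlx2 and Foxc1 were higher DEGs. Between the lesion groups limma gave 0 DEGs among these 13 genes, with 2 at an unadjusted p below 0.05. The summed FPKM of 6 fibroblast genes was also lower in the lesions, at 13084 to 18643 in controls, 3681 to 4890 in the IMQ + NS group and 4286 to 8109 in the IMQ + BZLF group, and its part in the HoxC values was not tested.

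Of 12 signalling genes upstream of the matrix factors, 3 were higher and 1 was a lower DEG in the IMQ + NS group (5 and 1 without control replicate 2). Over all genes tested 11.4% were higher and 11% were lower DEGs there (14.4% and 12.2% without control replicate 2). Bmp2 was at 2.89 ± 0.309 (SD, n = 4) and 8.72 ± 0.668 FPKM (log2 fold change 1.56, adjusted p = 1.1e-05). Wnt5a was at 4.13 ± 3.01 and 8.26 ± 0.756 FPKM (1.20, adjusted p = 0.0231 in limma). Wnt10a was at 7.53 ± 2.73 and 16.0 ± 0.972 FPKM (1.14, adjusted p = 0.00302 in limma, and 0.98 under another scaling of the samples). Eda, the ligand of the ectodysplasin receptor, was lower, at 2.86 ± 0.212 and 1.21 ± 0.111 FPKM (-1.18, adjusted p = 8.1e-05). For Shh the log2 fold change was 2.61 (adjusted p = 0.117), and 3.99 (adjusted p = 0.00136) without control replicate 2. In the IMQ + BZLF group against controls Bmp2 and Wnt5a of the 12 were higher DEGs with all samples, where 9.65% of all genes were. Without control replicate 2, 4 of the 12 were, where 12.7% of all genes were. Between the lesion groups limma gave 0, with 3 at an unadjusted p below 0.05. Wnt10a (-0.54, adjusted p = 0.018) and Eda (0.44, adjusted p = 0.0463) passed the threshold there but stayed inside the limit of fold change.

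Around the matrix, 18 of 19 hair shaft genes, 8 of 8 inner root sheath genes, 8 of 8 proliferation genes and 6 of 7 melanocyte genes were higher DEGs in the IMQ + NS group. Of 12 dermal papilla genes only Corin was a higher DEG and Fgf7, Prom1 and Rspo3 were lower DEGs, with 4 higher and 3 lower without control replicate 2. All genes tested had 11.4% higher and 11% lower DEGs in the IMQ + NS group (14.4% and 12.2% without control replicate 2). In the IMQ + BZLF group against controls 3 of 8 proliferation genes were higher DEGs, and 8 of 8 without control replicate 2, where 9.65% and 12.7% of all genes were. Between the lesion groups limma gave 0 DEGs in the shaft, sheath, proliferation and melanocyte lists, with 2, 4, 3 and 0 genes at an unadjusted p below 0.05. Among them Birc5 had an adjusted p of 0.0399 with a log2 fold change of -0.46. In the other lists Crabp1 of the dermal papilla (-1.28, adjusted p = 0.016) and the basal keratin Krt14 (-1.54, adjusted p = 0.00571) were lower DEGs and the epidermal keratin Krt77 (3.27, adjusted p = 0.00354) was a higher DEG after BZLF, and Rspo3 (0.80, adjusted p = 0.00866) and Krt5 (-0.78, adjusted p = 0.0183) passed the threshold inside the limit of fold change. Away from the matrix, 4 of 9 epidermal genes were higher and 2 lower DEGs in the IMQ + NS group, and lower DEGs were 5 of 6 fibroblast, 5 of 5 skeletal muscle, 3 of 5 adipocyte and 3 of 6 sebaceous gland genes, with none higher. Of the 5 T cell, 6 seminal vesicle and 6 pancreas genes limma gave 0 DEGs there, with 1, 0 and 0 at an unadjusted p below 0.05. The part of these cell populations in the levels of the 8 factors was not tested.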

How the data were processed

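Gene expression in back skin was measured by RNA-seq in 12 mouse samples, 4 per group. The authors deposited 1 FPKM value per gene and sample, normalized for transcript length and mapped fragments and not pooled. The study's methods name Bowtie2 and eXpress, mirVana extraction and a TruSeq Ribo-Zero library, whereas the submitters' processing notes and labels name fastp, HISAT2, HTSeq, R 3.2.0 and mm10, TRIzol and a VAHTS kit. Counts were not used here, and 29.0% of 18310 low values were whole multiples of their gene's lowest value to a tolerance of 0.05, so reads were not rebuilt.

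The 15288 of 18505 genes that averaged 0.1 FPKM or more were tested on log2(FPKM + 0.1), which understates the change of low genes, with limma 3.58.1 (R 4.3.3; moderated variances with a trend) for each pair of groups, with Benjamini-Hochberg adjustment over all genes tested. Python 3.11.15, pandas 2.3.3, SciPy 1.17.1 and matplotlib 3.10.9 gave the permutation tests, ratios, likeness and figures. The script was tested on simulated data. Nothing in the labels says how the samples of a group relate beyond a number, so p-values measure the spread between these samples. The 8 genes, the lists (the other hair follicle transcription factors, relatives and HoxC neighbours, upstream signals, hair shaft, inner root sheath, dermal papilla, proliferation, melanocyte, epidermis, fibroblast, T cell, sebaceous gland, adipocyte, skeletal muscle, seminal vesicle and pancreas) and the tests were chosen with earlier results of these data known. Named were all 8 genes, the 3 genes closest in pattern to each, and from a list its DEGs of highest mean FPKM, at most 3, or all where there were 5 or fewer. Alternatives were other constants, filters, scalings, fits and thresholds, the replicate number as a block and leaving out each sample.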

Additional observations from a re-analysis of the deposited data

Results flagged for a closer look

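Samples far from the others of their group were looked for with Dixon's test in 24 groups of 4 values, the 8 genes in the 3 groups, of which chance would flag about 1 in 20. It marked 7 values. Of these, 6 are control replicate 2, at 22.8 FPKM for Hoxc13, 16.1 for Msx1, 24.0 for Msx2, 60.5 for Dlx3, 2.07 for Dlx4 and 8.08 FPKM for Lef1, all above the other controls. These 6 come from 1 sample that had been set apart before the test, so they are not independent of each other, and Msx1 only just passed, its gap to the next control divided by the range of the group exceeding the critical value in the fifth decimal. Foxn1 and Foxq1, for which the same sample was also the highest control, were not marked. The seventh is IMQ + BZLF replicate 1 for Dlx3, at 194 FPKM, above the other samples of its group.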

How the results depend on the processing

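With controls, the number of DEGs among the 8 genes was 7 or 8 in every alternative, and between the lesion groups it was 0. Leaving out 1 sample gave 7 to 8 in both comparisons with controls. The log2 fold change of Msx1 in the IMQ + NS group was 0.79 to 1.95 and passed only without control replicate 2, and in the IMQ + BZLF group against controls, where it passed with all samples, it was 1.28 to 2.45 and of these fits passed only in the one without that sample. Foxn1 changed sign between the lesion groups without IMQ + BZLF replicate 1 (-0.0366), in a range up to 0.241 over the samples left out. Without IMQ + BZLF replicate 4 Foxq1 had an adjusted p of 0.0397 between the lesion groups, at a log2 fold change of 0.34. Rescaling to equal sums moved the median log2 fold change of all genes in the IMQ + NS group against controls from 0.05 to -0.07 and left the counts of the 8 genes as they were. With the replicate number as a block the counts were 7, 0 and 8 in the IMQ + NS and control, the lesion and the IMQ + BZLF and control comparisons. The numbers share nothing else in the labels, so no pairing was used in the main fits. Of 12 correlations between samples of the same number 6 were over 0.1 (-0.152 to 0.26), all between replicates 3 or between replicates 4. Those between different numbers ran from -0.236 to 0.268. A link between samples of the same number can therefore not be excluded, and it was not tested. The read depth behind low values such as Dlx4 in controls is unknown.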
